A study of Arabidopsis thaliana with 2 samples.

Results

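Abscisic acid is made and broken down by a short set of enzymes, and 10 of their genes are described here in leaf explants of Arabidopsis thaliana with and without induction of the transcription factor gene NAC1. The genes were taken by locus from the count tables: NCED2, NCED3, NCED5 and NCED9, ABA1, ABA2 and AAO3 for synthesis, and CYP707A1, CYP707A2 and CYP707A3 for breakdown. They are 10 of 33602 loci in the tables, and 7 of them reached 10 counts in at least 1 library, the minimum for a gene to be called measured here, which 20274 loci met. The 3 that did not are NCED2, NCED5 and NCED9.

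Abscisic acid is the plant hormone of water deficit, seed dormancy and stomatal closure. Its synthesis starts in plastids from carotenoids: ABA1 (zeaxanthin epoxidase) makes epoxycarotenoids, and the NCED enzymes cut 9-cis-epoxycarotenoids to xanthoxin, the step generally held to limit the rate. In the cytosol ABA2, a short-chain dehydrogenase, turns xanthoxin into abscisic aldehyde, which AAO3, an aldehyde oxidase, oxidises to the hormone. The CYP707A genes encode cytochrome P450 8′-hydroxylases, which start the main route of breakdown, and both NCED3 and CYP707A genes are known to respond to the hormone or to stress in leaves.

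The estradiol library was made from leaf explants cultured on B5 medium with β-estradiol in DMSO, and the control library from explants on B5 medium with DMSO alone. Both came from the first rosette leaf pair of plants 12 days after sowing, and both carried the transgene pER8:3xFlag-NAC1 in the Col-0 ecotype, in which estradiol releases a chimeric activator that switches on a tagged copy of NAC1. The design text gives the aim as finding genes that NAC1 turns up. The sources used here give neither the length of treatment nor the number of plants per library. Estradiol-treated explants without the transgene were not analysed here, so effects of estradiol itself and of induced NAC1 cannot be told apart.

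Each group has 1 library, so the differences have no replicate check, no test was run, and every ratio compares these libraries and not the conditions. The estradiol library held 48350705 gene counts and the control library 39799127. NAC1 (AT1G56010) had 28380 counts in the estradiol library and 466 in the control library, in the direction of the labels, although reads of transgene and native gene share this count and other genes are annotated over part of the locus. Leaf markers were abundant in both libraries, with 5 mesophyll genes summing to 6046 CPM (TMM-scaled counts relative to library size) in the estradiol library and 8298 CPM in the control library. The 3 seed storage and oil body genes examined summed to 0 counts in the estradiol library and 2 in the control library. Of 4 genes used as root markers, RHD6 had 0 counts and COBL9 1 count in each library, while SHR and PYK10, which are not confined to roots, were measured.

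Ratios below are of estradiol to control. Their exact 95% intervals treat the 2 counts of a gene as a binomial split of their sum (Clopper-Pearson) and cover counting error only. A gene is called lower where the whole interval lies below 0.5, and higher where it lies above 2. Of the 7 measured genes, 2 were lower, NCED3 and CYP707A3, and 0 were higher. Among all measured genes 4.64% were lower and 5.38% higher by the same rule. The median log2 ratio of the 7 was -0.24, against 0.01 over all measured genes. A log2 ratio below 0 was found in 5 of the 7, and in 10009 of the 20274 measured genes.

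**Figure D1:**
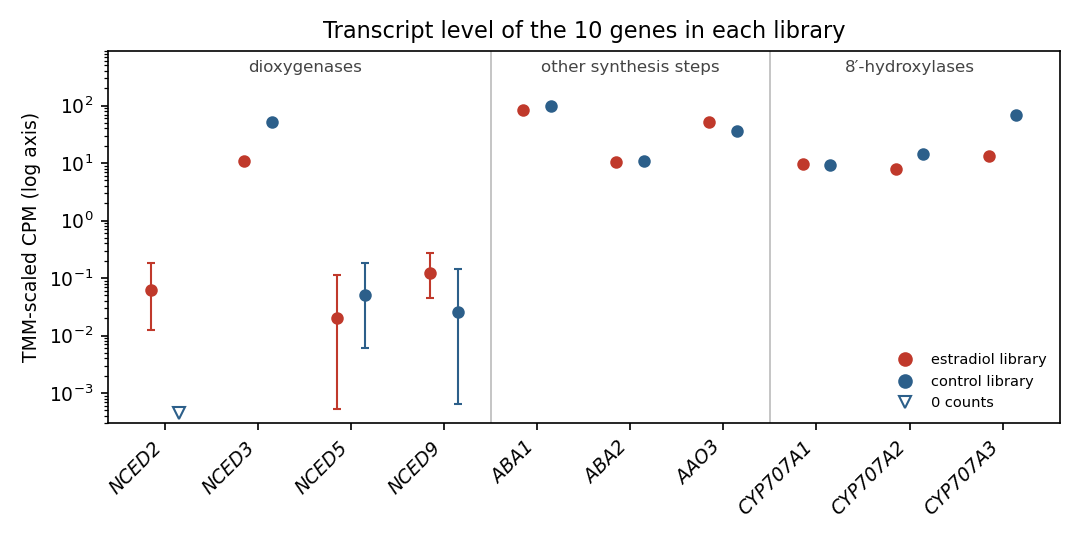
Level of each of the 10 genes in the estradiol library (red, left of each pair) and the control library (blue, right), in TMM-scaled CPM on a log axis, 1 library each; bars are exact 95% Poisson intervals for counting error, hidden by the point where narrow, and the open triangle marks 0 counts. NCED3 and CYP707A3 sit well below their control points, and NCED2, NCED5 and NCED9 are at most 0.123 CPM in both libraries.

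Nearly all counts of the 4 NCED members came from 1 gene, and that gene was lower in the estradiol library. NCED3 (AT3G14440) had 524 counts in the estradiol library and 2043 in the control library, which is 10.8 CPM and 51.7 CPM. It was 4.80-fold lower (4.36 to 5.30), a log2 ratio of -2.26, and 295 of the 20274 measured genes had a lower ratio. The whole interval lies past 4-fold, which 0.794% of measured genes reached on the lower side and 2.31% on the higher side. NCED3 is the dioxygenase gene best known for induction by drought in leaves.

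The other NCED genes were at the edge of detection. NCED2 (AT4G18350) had 3 counts in the estradiol library and 0 in the control library. NCED5 (AT1G30100) had 1 count in the estradiol library and 2 in the control library. For both, each library is at or under the floor of 3 counts, equal to 0.0616 CPM in the estradiol library and 0.0759 CPM in the control library, so no fold is given. NCED9 (AT1G78390), known for its role in seeds, had 6 counts in the estradiol library and 1 in the control library, a ratio of 4.87 with an interval of 0.591 to 224. NCED3 thus made up 98.1% of all NCED counts in the estradiol library (96.6 to 99.1) and 99.85% in the control library (99.57 to 99.97). The summed NCED counts were 534 in the estradiol library and 2046 in the control library, 4.72-fold lower (4.29 to 5.20).

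The steps on either side of the dioxygenases showed no call. ABA1 (AT5G67030), the gene with the highest level of the set, had 4131 counts in the estradiol library and 3946 in the control library, 84.8 CPM and 99.9 CPM. Its ratio was 0.850 (0.813 to 0.888), so counting error alone does not span 1, yet the difference is small. ABA2 (AT1G52340) had 514 counts in the estradiol library and 436 in the control library, a ratio of 0.957 (0.840 to 1.09) whose interval holds 1. AAO3 (AT2G27150) had 2493 counts in the estradiol library and 1426 in the control library, a ratio of 1.42 (1.33 to 1.52). It had the highest ratio of the 7 measured members, and 17068 measured genes lay below it. ABA2 and AAO3 overlap genes annotated on the other strand, and whether the counting used strand is not stated, so their counts are uncertain. The locus AT1G52330, which overlaps ABA2, had 9 counts in the estradiol library and 6 in the control library. AT2G27160, which overlaps AAO3, had 0 in both. AT1G07803 also overlaps ABA2 but is not among the counted loci, so its reads cannot be told apart here.

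**Figure D2:**
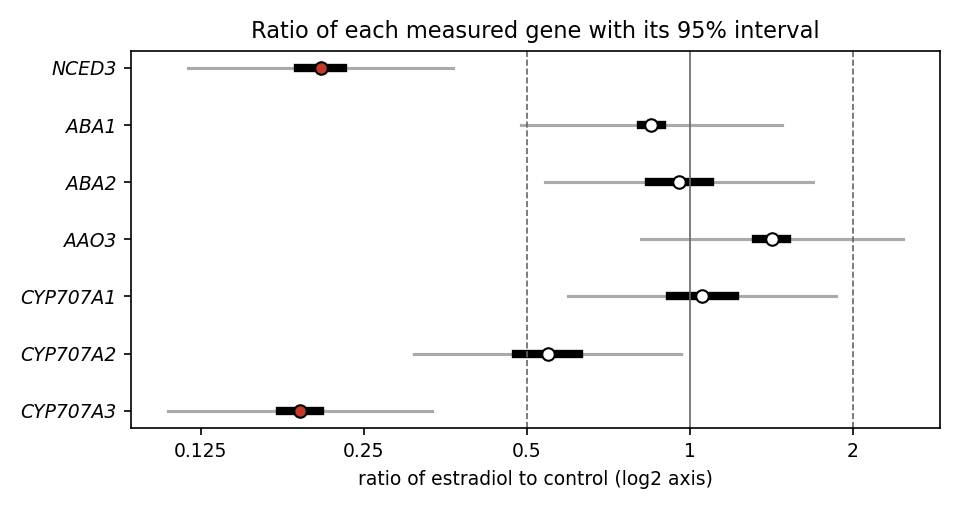
Ratio of estradiol to control for the 7 measured genes on a log2 axis; the thick black line is the exact 95% counting interval, the thin grey line the interval with an assumed coefficient of variation of 0.2 between libraries, red points are called lower, and dashed lines mark ratios of 0.5 and 2. The intervals of NCED3 and CYP707A3 lie wholly below 0.5 in both forms, and none of the other 5 counting intervals does.

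Among the breakdown genes the 3 hydroxylases differed in their ratios. CYP707A3 (AT5G45340), known for its fast response to drought and rehydration, had 645 counts in the estradiol library and 2746 in the control library, 13.2 CPM and 69.5 CPM. It was 5.25-fold lower (4.81 to 5.72), a log2 ratio of -2.39, the lowest of the 7, with 234 measured genes below it. CYP707A1 (AT4G19230), which in leaves is linked to guard cells and high humidity, had 478 counts in the estradiol library and 368 in the control library. Its ratio of 1.05 (0.918 to 1.21) has an interval that holds 1. CYP707A2 (AT2G29090), known mainly from seed germination, had 377 counts in the estradiol library and 560 in the control library. It was 1.83-fold lower (1.60 to 2.09) and was not called, since its interval holds the ratio 0.5.

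The balance among these 3 hydroxylase genes therefore differed between the libraries. Their summed counts were 1500 in the estradiol library and 3674 in the control library, 3.02-fold lower (2.84 to 3.21). CYP707A3 held 43.0% of this 3-gene sum in the estradiol library (40.5 to 45.6, exact binomial) and 74.7% in the control library (73.3 to 76.1). CYP707A1 held 31.9% in the estradiol library (29.5 to 34.3) and 10.02% in the control library (9.06 to 11.03). CYP707A2 held 25.1% in the estradiol library (23.0 to 27.4) and 15.2% in the control library (14.1 to 16.4). CYP707A3 had the most counts of the 3 in both libraries.

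**Figure D3:**
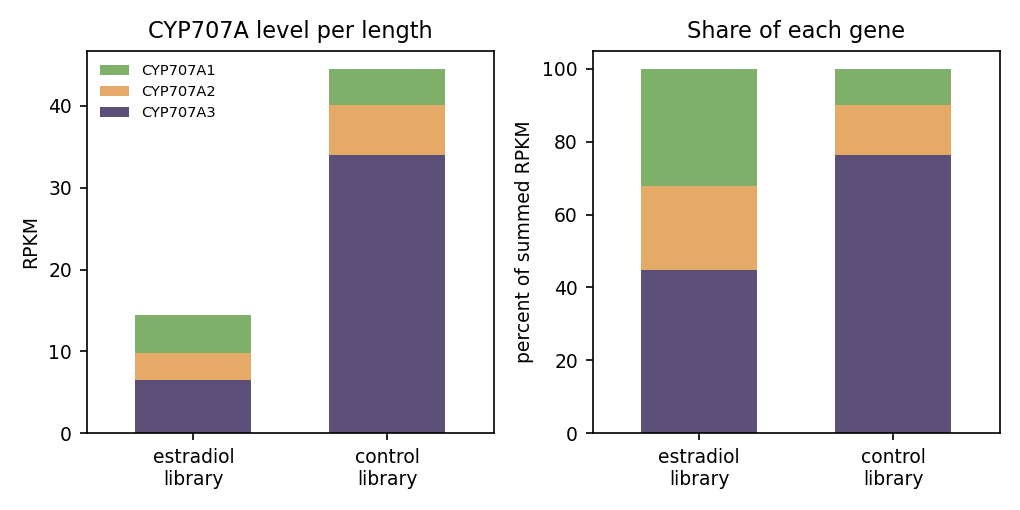
Levels of the 3 CYP707A genes per length (RPKM, TMM-scaled CPM per kilobase of annotated exon; left panel) and as percent of their sum (right panel), for the estradiol library (left bar) and the control library (right bar). The summed level is 14.5 RPKM in the estradiol library and 44.5 RPKM in the control library, and the CYP707A3 part makes up most of the difference.

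Levels can be compared between genes only per length, here as RPKM over all annotated exons. ABA1 stood highest in both libraries, at 32.6 RPKM in the estradiol library and 38.3 RPKM in the control library. In the control library CYP707A3 came second at 34.0 RPKM and NCED3 next at 18.9 RPKM, ahead of ABA2 at 9.32, AAO3 at 6.64, CYP707A2 at 6.08 and CYP707A1 at 4.40 RPKM. In the estradiol library AAO3 came second at 9.43 RPKM (9.06 to 9.80) and ABA2 next at 8.91 (8.16 to 9.72), and these neighbours have overlapping counting intervals. They were followed by CYP707A3 at 6.49, CYP707A1 at 4.64 (4.23 to 5.08), NCED3 at 3.94 (3.61 to 4.29) and CYP707A2 at 3.32 RPKM (3.00 to 3.68), where NCED3 overlaps both of its neighbours in this order. AAO3 and CYP707A2 overlap likewise in the control library, where they change places if the longest transcript is used as the length. NCED2, NCED5 and NCED9 were at most 0.0568 RPKM in either library.

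A count ratio between genes of the same library does not depend on how the libraries are scaled, and gene length cancels out of its change between libraries, though not out of the ratio itself. All 21 pairs of the 7 measured genes were computed, and in 3 the exact interval of the change between libraries held 1. NCED3 and CYP707A3 formed 1 of these pairs: there were 0.812 NCED3 counts per CYP707A3 count in the estradiol library and 0.744 in the control library, a change of 1.09-fold (0.958 to 1.24). The other pairs were ABA1 with ABA2, and ABA2 with CYP707A1. NCED3 and CYP707A3 thus had close ratios, and counting error alone leaves room for a factor of 0.958 to 1.24 between them. They are singled out because both were called lower by the same rule, so part of this likeness comes from that choice.

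Of the pairs that join 1 of these genes to another member, the smallest differences were with CYP707A2, at 2.62-fold for NCED3 (2.22 to 3.10) and 2.87-fold for CYP707A3 (2.44 to 3.36). AAO3 with CYP707A2, a pair without either gene, differed by 2.596-fold (2.24 to 3.01). There were 1.35 CYP707A3 counts per CYP707A1 count in the estradiol library and 7.46 in the control library, a 5.53-fold difference (4.69 to 6.51). For AAO3, which acts after NCED3, there were 4.76 counts per NCED3 count in the estradiol library and 0.698 in the control library, a 6.81-fold difference (6.06 to 7.67). For ABA1, which acts before NCED3, the counts per NCED3 count were 7.88 in the estradiol library and 1.93 in the control library, 4.08-fold apart (3.67 to 4.54). NCED3 and CYP707A3 were singled out after their values were seen. Without them the other 8 genes summed to 164 CPM in the estradiol library and 171 CPM in the control library. Most of each sum is ABA1 and AAO3, so the sums say little of the genes with fewer counts.

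**Figure D4:**
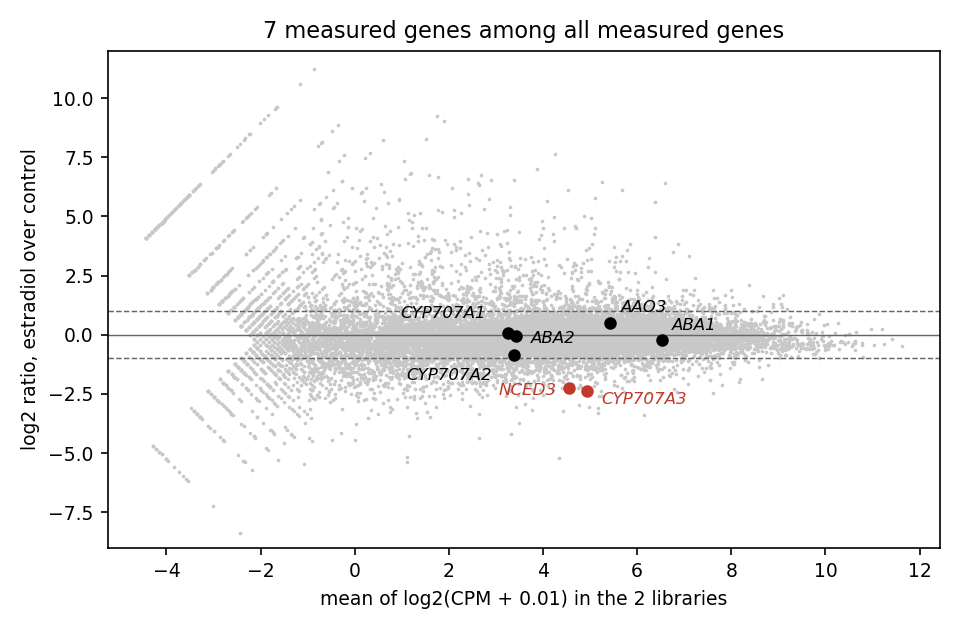
Log2 ratio of estradiol to control (vertical axis) against the mean of log2(CPM + 0.01) in the 2 libraries (horizontal axis) for the 20274 measured genes (grey), with the 7 measured abscisic acid genes marked; dashed lines are at ratios of 0.5 and 2. NCED3 at -2.26 and CYP707A3 at -2.39 lie below the dashed line for 0.5, and the other 5 lie between -0.87 and 0.50.

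The variation between libraries of these groups is not known. With an assumed coefficient of variation of 0.2, NCED3 was 2.74-fold to 8.44-fold lower and CYP707A3 2.99-fold to 9.20-fold lower, so both were still called lower and 0 members higher, against 1.87% of measured genes lower and 3.24% higher. The interval would reach 2-fold at an assumed coefficient of variation of 0.314 for NCED3 and 0.347 for CYP707A3. NCED3, NCED2, NCED5 and NCED9 are single-exon genes in the reference annotation, while CYP707A3 has 6 exons. None of the 10 genes has a copy elsewhere with at least 90% identity over 100 bases of transcript.

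The genes next to the members on the chromosome were examined as well. The neighbours of NCED3, AT3G14430 and CID9, had ratios of 1.24 (1.11 to 1.38) and 0.604 (0.517 to 0.705). Those of CYP707A3, DCP5-L and AT5G45350, had ratios of 0.826 (0.698 to 0.978) and 0.812 (0.783 to 0.842). None of these 4 was called. Over all 10 members there were 20 neighbours, of which 14 were measured, 1 was higher and 1 lower. Over all measured genes 5.38% were higher and 4.64% lower. The higher neighbour was GLR2.9, beside CYP707A2, and the lower one NUDX25, beside NCED5.

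NCED3, ABA2 and AAO3 are known to be active in vascular parenchyma, and AAO3 and CYP707A1 in guard cells. Of 5 phloem and vascular markers 0 were called, with log2 ratios of -0.77 to -0.17 and a summed level of 359 CPM in the estradiol library and 501 CPM in the control library. Of 5 guard cell markers 0 were called, with log2 ratios of -0.81 to -0.29 and summed levels of 110 CPM in the estradiol library and 153 CPM in the control library. Of 4 epidermis markers 0 were called, with log2 ratios of -1.24 to -0.08 and summed levels of 370 CPM in the estradiol library and 417 CPM in the control library. Of the 5 mesophyll markers 2 were lower, CAB3 and LHCB2.1, against 4.64% of all measured genes. The log2 ratios of the 5 were -2.04 to -0.19. CAB3 and LHCB2.1 have similar copies, as does RBCS1A, which was not called. The part of these shifts in the ratios of NCED3 and CYP707A3 was not tested, and in whole explants fewer cells of a type and less RNA per cell cannot be told apart.

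Beyond the 10 members, 74 further genes of the pathway were listed by role, of which 65 were measured, 4 were higher and 8 lower, with a median log2 ratio of -0.27. Those counts are 6.15% higher and 12.3% lower, against 5.38% higher and 4.64% lower over all measured genes, and 6 of the 8 lower genes belong to 1 list, the response targets. With the assumed coefficient of variation of 0.2, 4 were still higher and 3 lower, which is 6.15% and 4.62%, against 3.24% and 1.87% over all measured genes. The lists were drawn up with earlier results of these data known.

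The list of genes that make, convert or cleave carotenoids showed no call. All 10 were measured, with log2 ratios of -0.50 to 0.97 and a median of -0.30. PSY, which encodes phytoene synthase at the entry to the carotenoid pathway, had 15842 counts in the estradiol library and 18194 in the control library. PSY overlaps a gene annotated on the other strand, so its count is uncertain. CCD4, a dioxygenase gene that draws on carotenoids outside hormone synthesis, had the highest ratio, with 2368 counts in the estradiol library and 979 in the control library.

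Among 6 other synthesis and oxidation genes 4 were measured, and AAO1 was higher. AAO1, an aldehyde oxidase related to AAO3, had 3243 counts in the estradiol library and 584 in the control library, 4.51-fold higher (4.12 to 4.93). It overlaps another annotated gene, so its count is uncertain. ABA3, which provides the sulfurated cofactor that aldehyde oxidases need, had 1225 counts in the estradiol library and 843 in the control library and was not called. CYP707A4, the fourth hydroxylase gene of the family, had 16 counts in the estradiol library and 23 in the control library, and NCED6 had 0 in both.

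Of 4 genes for conjugating the hormone to glucose or releasing it, none was called. BGLU18, a β-glucosidase of the endoplasmic reticulum that frees the hormone from its glucose ester, had 61330 counts in the estradiol library and 27159 in the control library, a ratio of 1.83 (1.81 to 1.86). Of 6 transporter genes 1 was higher and 1 lower. ABCG40, an importer of abscisic acid, had 3939 counts in the estradiol library and 166 in the control library, 19.3-fold higher (16.5 to 22.6). DTX50, which encodes an exporter, had 269 counts in the estradiol library and 1376 in the control library, 6.30-fold lower (5.53 to 7.21). ABCG25, an exporter of vascular tissue, had 728 counts in the estradiol library and 587 in the control library, a ratio of 1.01 (0.901 to 1.12).

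Signalling genes were mostly without a call. Of 14 receptor genes 10 were measured, with PYL3 higher and PYL2 lower. PYL3 had 472 counts in the estradiol library and 0 in the control library, at least 127-fold higher against the floor of 3 counts in the control library when the estradiol count is taken as exact, while the exact interval starts at 103-fold. PYL2 had 53 counts in the estradiol library and 120 in the control library, 2.79-fold lower (2.00 to 3.93), a call lost with the assumed variation. Of 12 phosphatase and kinase genes 11 were measured, and HAI3, a clade A phosphatase gene, was higher with 126 counts in the estradiol library and 9 in the control library, 11.4-fold (5.80 to 25.4). Of 12 transcription factor genes of the response 10 were measured and none was called, with log2 ratios of -0.70 to 0.44.

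Response genes were lower in 6 of 10, all 10 being measured, against 4.64% of all measured genes. Their median log2 ratio was -1.19. With the assumed variation 2 were still lower, against 1.87% of all measured genes. COR15A, a chloroplast protein of freezing tolerance, had 5278 counts in the estradiol library and 18395 in the control library, and LTI78 (RD29A) had 4658 in the estradiol library and 14270 in the control library. LTI30, a dehydrin gene, had 134 counts in the estradiol library and 388 in the control library, a call lost with the assumed variation. All 3 also respond to cold through the CBF factors. COR6.6, another of the 6, has a similar copy in KIN1, so its count is uncertain. ERD10 and COR47, also among the 6, had ratios of 0.452 and 0.428. The calls of COR6.6, ERD10 and COR47 were lost with the assumed variation. These 3 are known as cold-response genes as well, so for all 6 a response to the hormone and a response to cold cannot be told apart here. RD22 was not called, at a ratio of 0.627 (0.612 to 0.643). RAB18, a dehydrin gene often used as a marker of the hormone, had 1236 counts in the estradiol library and 1252 in the control library, a ratio of 0.801 (0.740 to 0.867). LTI65 (RD29B), another such marker, had 11 counts in the estradiol library and 9 in the control library.

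**Figure D5:**
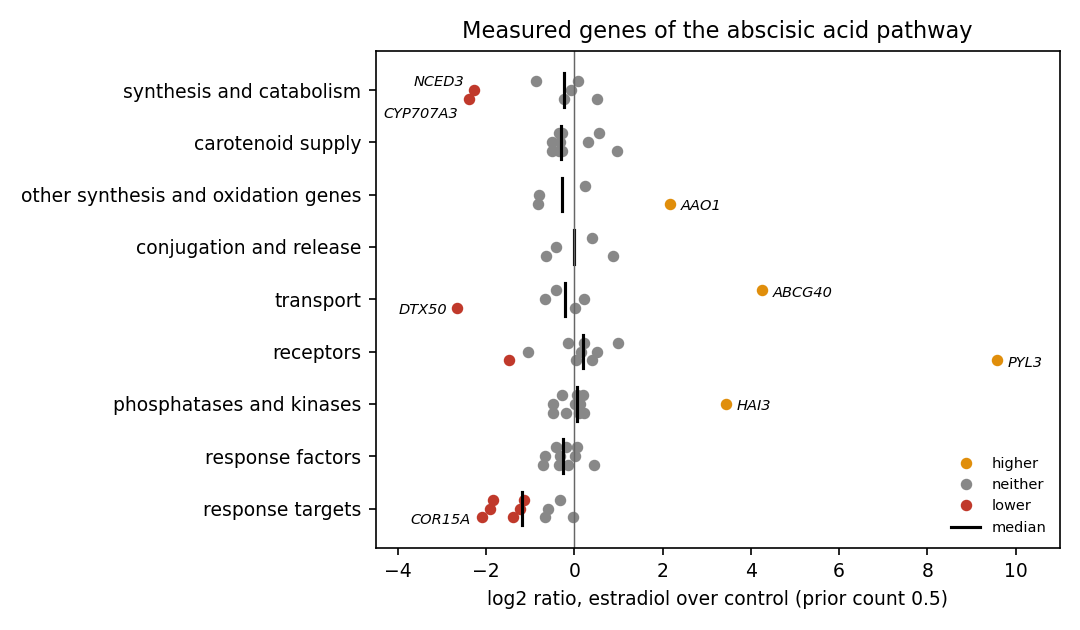
Log2 ratio of estradiol to control for each measured gene (point) of the synthesis and catabolism set and of 8 further lists of the pathway; black bars are list medians, orange points are called higher, red lower and grey neither. Calls are few in each list except the response targets, where 6 of 10 are lower, against 4.64% of all measured genes.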

How the data were processed

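The authors deposited raw read counts for 33602 loci in each of 2 libraries, with 5 summary lines that were kept out of library sizes. Per the submitters' processing notes, FastQC, HTSeq and DESeq were used with the TAIR10 build; versions, aligner, annotation release and strand setting are not stated there. Ambiguous reads were 1.91% of the estradiol and 2.05% of the control library, and reads outside features 0.693% of the estradiol and 0.742% of the control library. Groups follow the treatment label.

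Library sizes were scaled with TMM factors (edgeR 4.0.16, R 4.3.3), which were 1.01 for the estradiol and 0.993 for the control library; no edgeR test was run. Measured genes have at least 10 counts in 1 or more libraries, and log2 ratios use a prior count of 0.5. Equal counts of 100 in each library give an interval of 0.750 to 1.33, and intervals and floors cover counting error only, since PCR copies cannot be told from separate molecules. The assumed variation was added to the interval on the log scale. The size rule was run on data simulated for estradiol against control in 20051 genes, with counting error alone. It called 47 of 50 genes made 4-fold lower, 44 of 50 made 3-fold lower and 1 of 19851 unchanged genes. The intervals assume the same counting error, so few calls among unchanged genes follow from that setting. In 20015 genes simulated at a coefficient of variation of 0.2 between libraries, 144 of 19817 unchanged genes were called.

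Symbols, exon lengths, overlaps and neighbours come from the TAIR10.1 annotation, matched by locus tag, and transcripts were compared with blastn 2.17.0; because the notes name TAIR10, no coordinates or sequences are given. The members and lists were chosen with earlier results of these data known. The named genes are the 10 members, NAC1, and up to 3 called genes in each direction from each other list, ranked by the interval bound nearest to 1; further genes are named for their role, with their values already known. With 2 libraries a pattern is a single ratio, so no genes were ranked by likeness. Alternatives were median-of-ratios size factors (DESeq2 1.42.0), total counts, count minimums of 50 and 1, thresholds of 1.5-fold and 4-fold, the assumed variation and a prior count of 2.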

Additional observations from a re-analysis of the deposited data

How the results depend on the processing

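NCED3 and CYP707A3 were the members called lower under median-of-ratios size factors, total counts, minimums of 50 and 1 counts, a 4-fold threshold and the assumed coefficient of variation of 0.2, and 0 members were called higher under any of these. With a 1.5-fold threshold CYP707A2 joined them, making 3 lower and 0 higher. Over all genes, 1809 were higher and 2009 lower at 1.5-fold, 468 and 161 at 4-fold, and 657 and 380 with the assumed variation, against 1090 and 940 as reported. The median log2 ratio of the members was -0.24 as reported and -0.15 with a minimum of 1 count, which admits NCED2, NCED5 and NCED9; with NCED2 set to the floor of 3 counts in both libraries it was -0.27. With the longest transcript as length, an alternative chosen after seeing the data, CYP707A3 made up 43.2% of the summed per-length level of CYP707A1, CYP707A2 and CYP707A3 in the estradiol library and 74.8% in the control library, against 44.9% and 76.4% with all exons. No paired analysis was possible because each group has 1 library. With no replicates, the ratios describe these libraries alone.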
